A study of Mus musculus with 6 samples.

Results

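The genes described here are feedback brakes on MAP kinase signalling: the dual-specificity phosphatase genes Dusp1, Dusp2, Dusp4, Dusp5, Dusp6 and Dusp10, the Sprouty genes Spry1 and Spry2, and Spred1. They were chosen by name, as 9 of the 18193 genes on the array, and all 18 probe sets that the platform annotation assigns to a single one of them were used, of 45037 tested in all. Where a gene had several, the brightest on average stands for it. Expression was measured in 3 SAP-deficient and 3 wild-type (WT) samples, each on 1 Affymetrix mouse whole-genome array. Both genotypes carried OT-II, a transgenic T cell receptor specific for a peptide of ovalbumin. SAP is a small adaptor that couples SLAM-family receptors to kinases inside the cell, and its gene is Sh2d1a. Sorted naive CD4 T cells from spleen and lymph nodes were grown for 3.5 days with that peptide and with splenocytes, from which T cells had been removed and whose division mitomycin C had blocked, so RNA of splenocytes may be present. Cultures of both genotypes contained 100 ng/ml of IL-6, 50 ng/ml of IL-21, blocking antibodies to IFN-γ and IL-12, 10 µg/ml of a blocking antibody to IL-4 and 20 µg/ml of one to TGF-β, a mixture that steers cells toward a follicular helper (Tfh-like) state. No age of the mice is given in the labels, nor whether replicates are separate mice or separate cultures, so p-values reflect only the spread between these arrays, which may be technical in part.

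The MAP kinases ERK, JNK and p38 are switched on by phosphorylation of their activation loop, in T cells downstream of the T cell receptor and Ras. Dual-specificity phosphatases remove that phosphate. Sprouty and Spred proteins act further upstream, on the steps that lead from receptors through Ras and Raf to ERK. Many of these genes are themselves induced by MAP kinase signalling, so that the brakes form a negative feedback loop and their transcripts are widely used as readouts of ERK activity.

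All values below are RMA levels on the log2 scale, where a difference of 1 is 2-fold, and a change is the SAP-deficient mean minus the WT mean. The targeted gene checked the labels: Sh2d1a was at 5.47, 4.10 and 4.92 in SAP-deficient replicates 1 to 3, against 9.50, 8.52 and 9.39 in WT replicates 1 to 3. Its change was -4.31 (95% interval -5.20 to -3.42), with an adjusted p of 0.107 (limma), so this fit over all genes did not call even a 19.8-fold lower level. A count of 0 called genes below therefore says little, and the intervals carry the comparison. Replicates were numbered within each genotype in the order of the samples, and the labels state no pairing. Even so, arrays with the same number resembled each other: over all probe sets, their departures from their own genotype's mean had correlations of 0.52, 0.73 and 0.60, against -0.52 to -0.10 for arrays of opposite genotype with different numbers. Because the departures of 3 arrays from their mean must sum to 0, positive values for equal numbers push these last values below 0. Differences between arrays with the same number are therefore given for each feedback gene. What the arrays with the same number share was not tested. The T cell genes Cd3e, Cd3d, Cd3g, Cd4, Cd28 and Trat1 all lay above the median of probe-set means (5.75), as did the Tfh markers Bcl6, Pdcd1, Icos and Il21. The Tfh marker Cxcr5 lay near it, with a mean of 5.81 and a level of 5.01 in SAP-deficient replicate 3 and 5.74 in WT replicate 3.

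SAP deficiency was not accompanied by a detectable change of any of the 9 feedback genes. Their changes ran from -0.09 to 0.15, with 4 genes higher and 5 lower, and the median was -0.04, against 0.008 over all genes. Limma called 0 of the 9 at an adjusted p under 0.05, and 0 of them had an unadjusted p under 0.05. Over all genes the shares were 0% called and 1.46% with an unadjusted p under 0.05. The SAP-deficient and WT arrays overlapped for all 9 genes, while 5.32% of all genes had no overlap. All 9 of the 95% intervals lay inside 1 log2 unit on either side of 0. The lowest bound was -0.71 for Spry1 and the highest 0.95 for Dusp1, so a 2-fold change of a feedback gene lay outside its interval in this fit. Differences between replicate numbers count as spread in these intervals. A fit with same-numbered arrays as a block, given below, had narrower ones. The test itself made no call in any gene, Sh2d1a included. For 6 genes the interval stayed within 0.5.

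**Figure D1:**
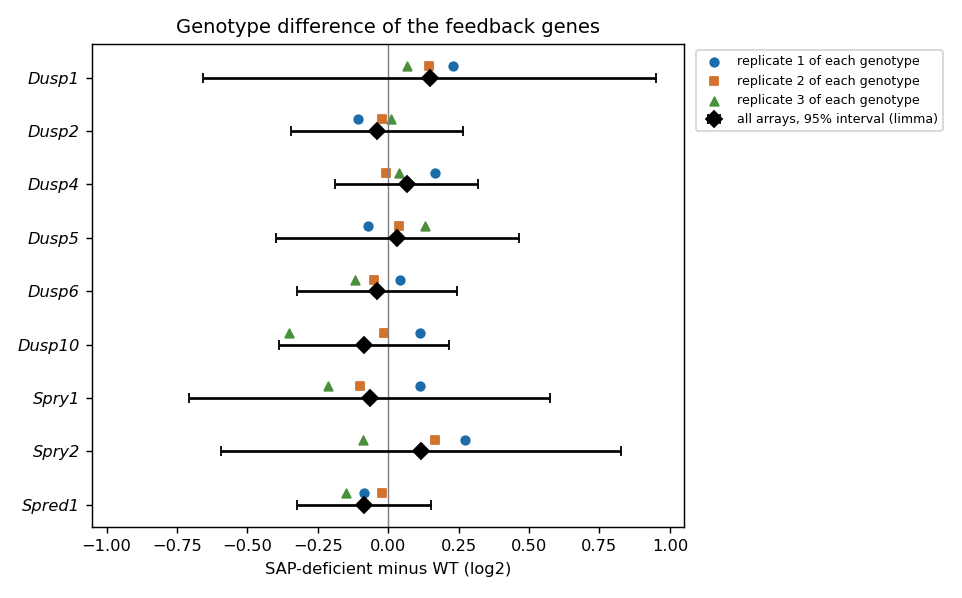
Change of each feedback gene, SAP-deficient minus WT, in log2 units. Black diamonds are the difference of the genotype means with its 95% interval (limma, 3 arrays per genotype), and coloured symbols are the differences between arrays with the same replicate number. Every interval of this fit, which ignores replicate number, includes 0, and the widest, that of Dusp1, runs from -0.66 to 0.95. With same-numbered arrays as a block, not drawn here, the Dusp1 interval ran from 0.02 to 0.27.

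The nuclear phosphatases come first, because they are the ones most often described as immediate early genes. Dusp1 (Entrez Gene 19252), which acts on p38 and JNK as well as ERK, lies at chr17:26505591-26508472 (GRCm38.p6). It was at 10.41, 10.01 and 11.07 in SAP-deficient replicates 1 to 3, against 10.18, 9.86 and 11.00 in WT replicates 1 to 3. The genotypes overlapped, and in each of them replicate 3 was the highest array and replicate 2 the lowest. The means were 10.49 ± 0.53 and 10.35 ± 0.59 in SAP-deficient and WT cells (SD, n = 3 each), and the change was 0.15 (95% interval -0.66 to 0.95, limma adjusted p = 1.00). SAP-deficient arrays lay above WT arrays of the same number by 0.23, 0.15 and 0.07.

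Dusp2 (chr2:127336159-127338377), an inducible nuclear phosphatase known from activated lymphocytes, showed the same order of arrays at its upper end. Its levels were 12.39, 12.54 and 12.84 in SAP-deficient replicates 1 to 3, against 12.49, 12.56 and 12.83 in WT replicates 1 to 3. Replicate 3 was again the highest in each genotype, and the genotype change was -0.04 (-0.35 to 0.27), with differences of -0.11, -0.02 and 0.01 between arrays of the same number. Dusp5 (chr19:53529145-53541809), a nuclear phosphatase dedicated to ERK, was at 11.11, 11.51 and 11.78 in SAP-deficient replicates 1 to 3, against 11.19, 11.47 and 11.65 in WT replicates 1 to 3. Its arrays took the same order as those of Dusp2 in both genotypes, with replicate 1 lowest and replicate 3 highest, and its change was 0.03 (-0.40 to 0.46), with same-number differences of -0.07, 0.04 and 0.13. Dusp4 (chr8:34807610-34819894), a nuclear phosphatase with ERK and JNK among its substrates, was at 11.57, 11.73 and 11.77 in SAP-deficient replicates 1 to 3, against 11.40, 11.73 and 11.73 in WT replicates 1 to 3. Here replicate 1 was the low array of each genotype, and replicates 2 and 3 lay close together. The change of Dusp4 was 0.07 (-0.19 to 0.32), and its same-number differences were 0.165, -0.01 and 0.04.

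The promoters of Dusp1 and Dusp5 are shown because these genes differed most between replicate numbers among the nuclear phosphatases and shared their highest array. Promoter sequence from RefSeq (GRCm38.p6) was matched for 8 of the 9 genes. Each sequence is the 250 bases before the annotated start, 5′ to 3′ in the direction of transcription; capitals mark the core of the cAMP response element, TGACG on either strand, and the CArG box, which binds serum response factor.
Dusp1 promoter, chr17:26508473-26508722, minus strand: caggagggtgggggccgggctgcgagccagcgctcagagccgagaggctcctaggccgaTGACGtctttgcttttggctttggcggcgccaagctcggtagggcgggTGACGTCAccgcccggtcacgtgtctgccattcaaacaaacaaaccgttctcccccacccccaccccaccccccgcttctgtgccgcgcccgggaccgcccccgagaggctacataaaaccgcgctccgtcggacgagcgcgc
Dusp5 promoter, chr19:53528895-53529144, plus strand: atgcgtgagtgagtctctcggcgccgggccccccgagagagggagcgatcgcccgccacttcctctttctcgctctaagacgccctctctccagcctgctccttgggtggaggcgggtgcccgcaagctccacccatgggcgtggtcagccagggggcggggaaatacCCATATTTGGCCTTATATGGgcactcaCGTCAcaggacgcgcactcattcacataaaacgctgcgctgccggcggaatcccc
In the Dusp1 promoter, a full cAMP response element (TGACGTCA) lay 143 to 136 bases before the start, made of overlapping cores on opposite strands, and a further core lay 191 to 187 bases before it. The Dusp5 promoter held adjacent CArG boxes 82 to 73 and 72 to 63 bases before the start, and a core 55 to 51 bases before it. On both strands of the 250 bases, the full element occurred in 1.55% of 32851 RefSeq promoters, the core in 17.8% and the CArG box in 1.47%. Among the 8 promoters matched here the numbers were 1, 2 and 1. The ETS core CCGGAA (12.03% of all promoters), the AP-1 site TGANTCA (6.75%) and the TATA box TATAAA (12.4%) were found in 0 of the 8, the E-box CACGTG (6.02%) in 2 and the GC box GGGCGG (32.7%) in 6. These matches describe letters in a window and do not show that a factor binds.

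Dusp6 (chr10:99263231-99267489), the cytoplasmic phosphatase dedicated to ERK and one of the most used ERK readouts, took a different order from the nuclear phosphatases. It was at 11.78, 11.45 and 11.39 in SAP-deficient replicates 1 to 3, against 11.74, 11.50 and 11.50 in WT replicates 1 to 3. Replicate 1 was the highest array of each genotype, where Dusp2, Dusp4 and Dusp5 had their lowest. The means were 11.54 ± 0.21 and 11.58 ± 0.14 in SAP-deficient and WT cells (SD, n = 3 each), and the change was -0.04 (95% interval -0.33 to 0.24, limma adjusted p = 1.00). Between arrays of the same number the differences were 0.04, -0.05 and -0.12. The genes whose profile over the 6 arrays was most like that of Dusp6, by the root mean square difference of mean-centred levels, were the ATP-gated channel gene P2rx4 (0.026), the cell-adhesion gene Emb (0.028) and the lysophosphatidic acid receptor gene Lpar6 (0.029). These 3 were also highest in replicate 1 of both genotypes, which follows from their choice by likeness.

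Dusp10 (chr1:184034381-184075636) encodes a phosphatase with a preference for JNK and p38 over ERK, and it was the feedback gene whose levels followed the replicate number least. It was at 7.88, 7.82 and 7.57 in SAP-deficient replicates 1 to 3, against 7.77, 7.84 and 7.93 in WT replicates 1 to 3. Replicate 3 was the lowest SAP-deficient array and the highest WT array, and the differences in replicates 1 and 2 were 0.11 and -0.01. The change was -0.08 (-0.39 to 0.22), and the difference in replicate 3 was -0.35, the largest such difference among the 9 genes. A second Dusp10 probe set, with a mean just under the median of probe-set means, was at 5.71, 5.66 and 5.54 in SAP-deficient replicates 1 to 3, against 5.82, 5.70 and 5.94 in WT replicates 1 to 3. Both probe sets thus had replicate 3 as their lowest SAP-deficient and highest WT array. The change of the second was -0.18 (-0.45 to 0.08).

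The products of the Sprouty genes hold back receptor-driven activation of the Ras and ERK pathway. By the brightest probe set of each, these genes varied widely between replicate numbers and in opposite ways. Spry1 (chr3:37639947-37644599) was at 12.35, 11.42 and 12.06 in SAP-deficient replicates 1 to 3, against 12.23, 11.52 and 12.27 in WT replicates 1 to 3. Replicate 2 was the lowest array of each genotype. Its means were 11.94 ± 0.48 and 12.01 ± 0.43 in SAP-deficient and WT cells (SD, n = 3 each), with a change of -0.07 (95% interval -0.71 to 0.58, limma adjusted p = 1.00) and same-number differences of 0.11, -0.10 and -0.21. Spry2 (chr14:105891947-105896819) was at 8.13, 8.95 and 8.10 in SAP-deficient replicates 1 to 3, against 7.86, 8.78 and 8.18 in WT replicates 1 to 3. Here replicate 2 was the highest array of each genotype. Its means were 8.39 ± 0.49 and 8.27 ± 0.47 in SAP-deficient and WT cells, with a change of 0.12 (-0.59 to 0.83) and same-number differences of 0.27, 0.17 and -0.09.

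A second Spry2 probe set, with a mean under the median of probe-set means, did not repeat this order. It was at 5.57, 5.44 and 5.45 in SAP-deficient replicates 1 to 3, against 5.76, 5.43 and 5.71 in WT replicates 1 to 3, so replicate 2 was its lowest array in each genotype. Its change was -0.15 (-0.44 to 0.14), opposite in sign to that of the brighter probe set, and neither had an unadjusted p under 0.05. RMA compresses differences of dim probe sets, and which of them tracks the Spry2 transcript better was not tested.

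Spred1 (chr2:117121071-117182279) encodes a membrane-bound relative of the Sprouty proteins that works with neurofibromin to hold Ras inactive. Its brightest probe set was at 9.62, 9.62 and 9.69 in SAP-deficient replicates 1 to 3, against 9.71, 9.64 and 9.84 in WT replicates 1 to 3. The arrays of all 6 samples lay within a narrow band, and the genotypes overlapped only through WT replicate 2. The change was -0.09 (-0.32 to 0.15), and the differences between arrays of the same number were -0.09, -0.02 and -0.15. Spred1 was measured by 8 probe sets, of which 2 had a mean under the median. Their changes ran from -0.27 to 0.04, with 2 higher and 6 lower. The lowest belonged to an _s_at probe set of intermediate level, at 7.52, 7.39 and 7.62 in SAP-deficient replicates 1 to 3, against 7.91, 7.52 and 7.91 in WT replicates 1 to 3. Its groups overlapped through WT replicate 2, which lay at the level of SAP-deficient replicate 1. Of all 18 probe sets of the feedback genes, limma called 0 and gave 0 an unadjusted p under 0.05. Over all probe sets 0% were called and 1.64% had an unadjusted p under 0.05. The genotypes overlapped in all 18, while 5.7% of all probe sets had no overlap.

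**Figure D2:**
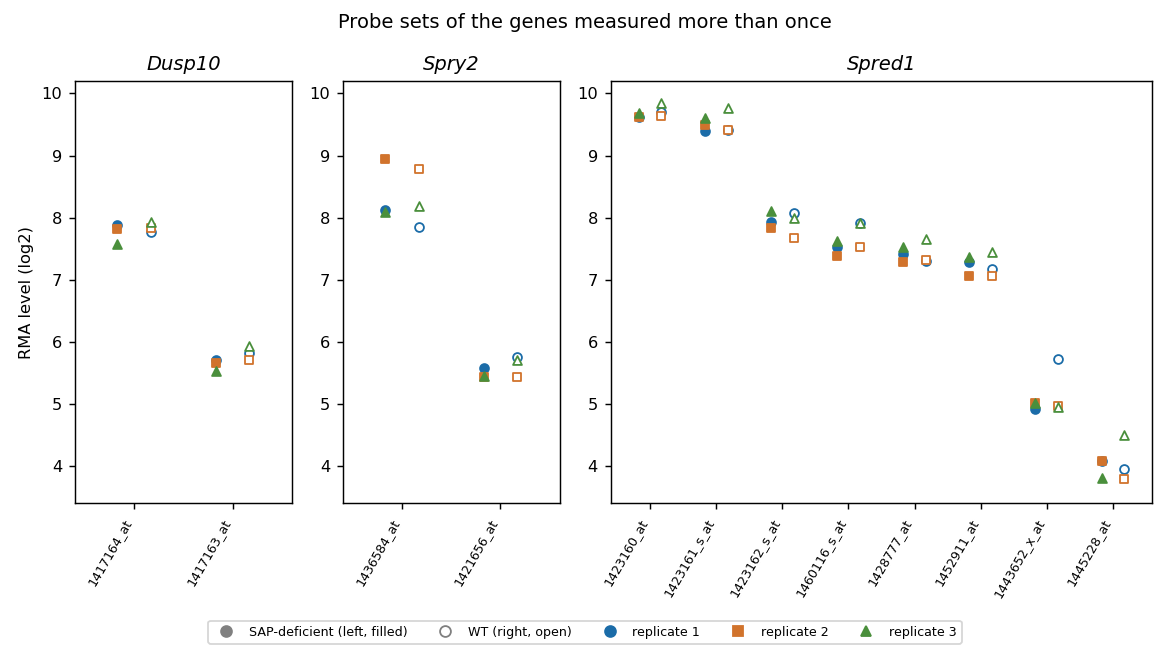
RMA levels (log2) of every probe set of Dusp10, Spry2 and Spred1, the feedback genes measured more than once, with SAP-deficient arrays as filled symbols on the left and WT arrays as open symbols on the right of each position. Symbol shape and colour give the replicate number, and levels of different probe sets are not comparable with each other. The high replicate 2 of Spry2 appears in its brighter probe set and not in its dimmer one.

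**Figure D3:**
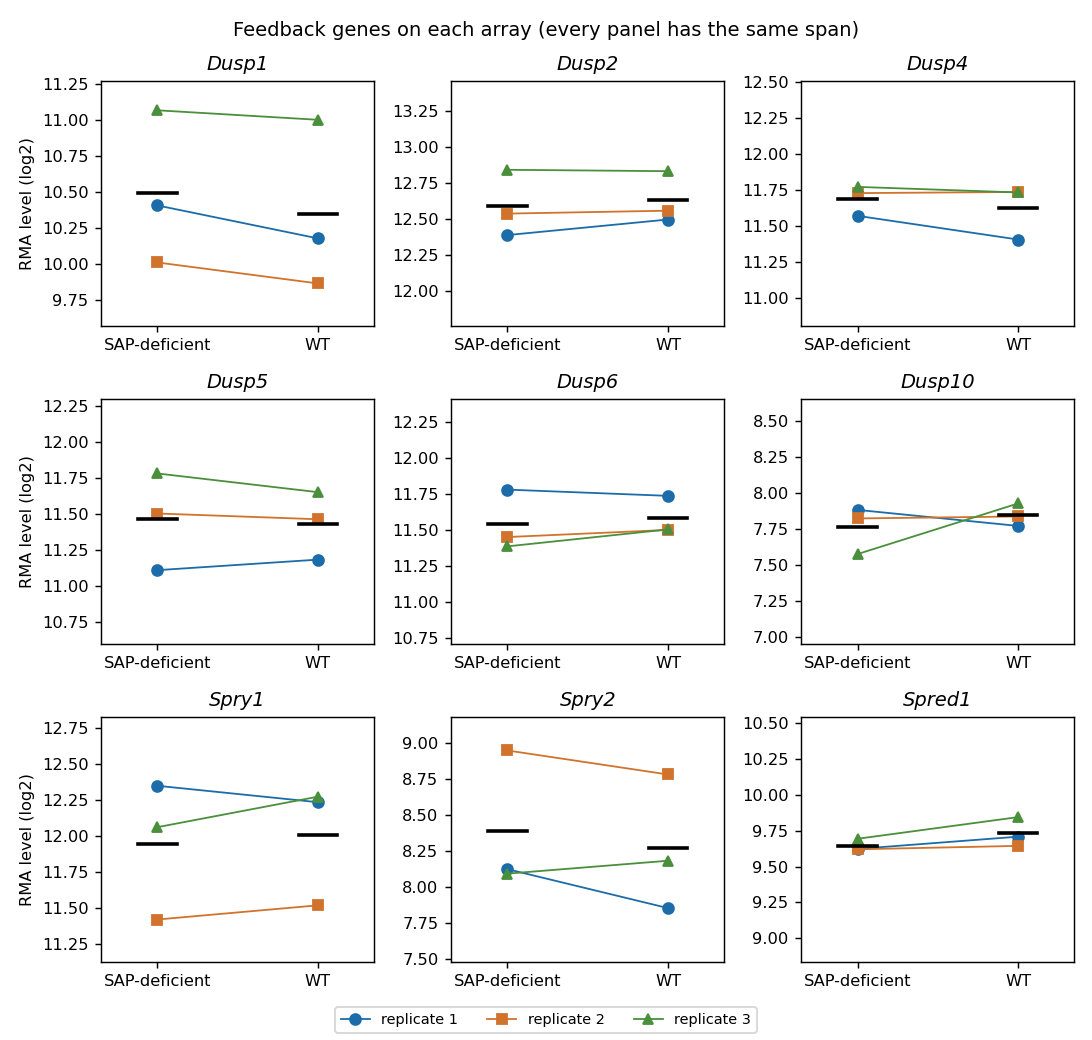
RMA level (log2) of each feedback gene on each array, SAP-deficient on the left and WT on the right, with lines joining arrays of the same replicate number and black bars at the genotype means. All panels have the same span, so slopes and gaps can be compared between genes. Averaged over the 2 genotypes, the gaps between the lines reach 1.10 for Dusp1, while the steepest line, replicate 3 of Dusp10, spans 0.35.

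For most of the feedback genes, the gap between replicate numbers exceeded that between genotypes. Averaged over the arrays of each number, Dusp1 was at 10.29, 9.94 and 11.03 in numbers 1 to 3, a range of 1.10 or 2.14-fold. The corresponding ranges were 0.88 for Spry2, 0.82 for Spry1, 0.57 for Dusp5, 0.39 for Dusp2, 0.31 for Dusp6, 0.26 for Dusp4, 0.14 for Spred1 and 0.08 for Dusp10, against a median of 0.23 over all genes. In 7 of the 9 genes, all but Dusp10 and Spred1, this range was larger than every difference between genotypes at the same number. By the SD over the 6 arrays, Dusp1 stood at the 97.3 percentile of all genes, Spry2 at the 95.5 and Spry1 at the 94.6, and Spred1 at the 14.4.

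The sum of squares of each gene over the 6 arrays was split into genotype, replicate number and the rest. Replicate number held 97.0% of it for Dusp1, 96.5% for Dusp2 and Dusp5, 95.9% for Spry1, 94.2% for Spry2 and 92.9% for Dusp6. It held 85.8% for Dusp4, 57.1% for Spred1 and 10.3% for Dusp10. Genotype held at most 6.31% in Dusp1, Dusp2, Dusp4, Dusp5, Dusp6, Spry1 and Spry2, and 31.6% in Spred1 and 14.1% in Dusp10. Replicate number held over 90% in 6 of the 9 genes, against 20.4% of all genes and 29.5% of the 10936 genes above the median level. The median share was 94.2% for the feedback genes, 66.9% for all genes and 78.7% for the brighter ones. Among other lists of pathway genes, taken up below, it was 94.1% for other Ras and diacylglycerol brakes. It was 93.3% for JNK and p38 cascades, 92.2% for other ERK-induced genes and 75.0% for Ras activation and the ERK cascade. Other Sprouty and Spred genes had 57.8% and other phosphatases 52.3%. A high share was thus not particular to the feedback genes. These shares describe the arrays and carry no test, since the labels do not say what a shared number stands for.

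**Figure D4:**
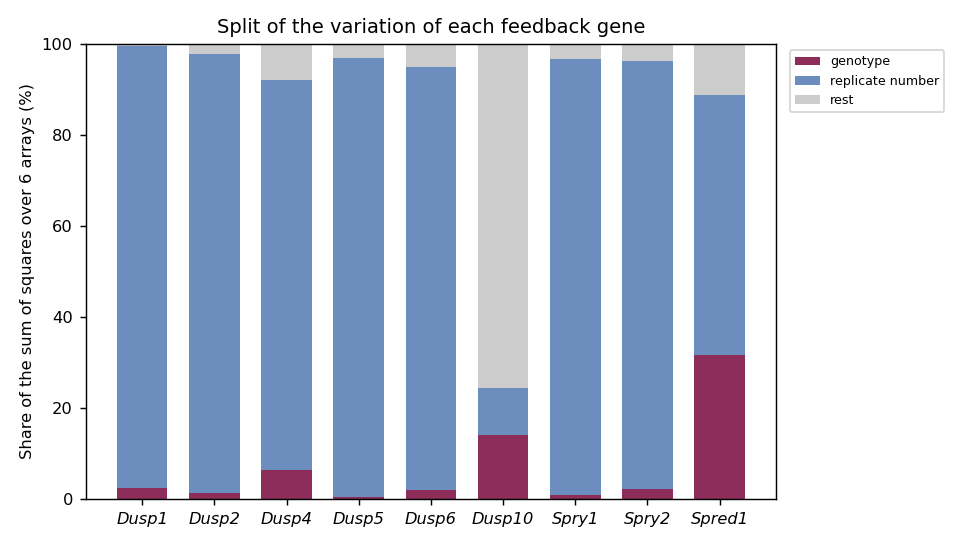
Split of the sum of squares of each feedback gene's RMA levels over the 6 arrays, in percent, into genotype, replicate number and the rest. The blue part, replicate number, exceeds 90% in 6 genes, and the grey rest is the largest part for Dusp10 alone.

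The replicate numbers did not raise or lower the brakes as a block. Of the 9 genes, 5 had their highest mean in number 3 (Dusp1, Dusp2, Dusp4, Dusp5 and Spred1), 2 in number 1 (Dusp6 and Spry1) and 2 in number 2 (Spry2 and, by under 0.01, Dusp10). Over all genes, 37.2% were highest in number 3, 30.8% in number 1 and 31.9% in number 2. Among the 36 pairs of feedback genes, Dusp2 and Dusp5 had the smallest root mean square difference of profiles (0.11). This measure is also small between genes that vary little, and the next pair was Dusp10 and Spred1 (0.12). Dusp1 was the feedback gene with the largest SD over the arrays. The genes most similar to it on the whole array were Pdzk1ip1 (0.075), 2900026A02Rik (0.075) and the tubulin gene Tuba8 (0.087). All were highest in replicate 3 of both genotypes, which again follows from their choice.

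Markers of other cells in the cultures also differed between replicate numbers. In bulk samples, fewer cells of a type and less RNA per cell cannot be told apart. The summed linear level of 7 B cell genes was 2301, 1611 and 1360 in SAP-deficient replicates 1 to 3. In WT replicates 1 to 3 it was 2547, 1617 and 1472, so replicate 1 was the highest of each genotype. Ighm made up 68.6 to 81.5% of this sum. The other 6 genes summed to 425, 386 and 341 in SAP-deficient replicates 1 to 3, against 547, 401 and 462 in WT replicates 1 to 3. Of the 7 genes 2 lay under the median of probe-set means. The sum of 4 MHC class II genes ran from 2239 to 3216 in SAP-deficient and from 2588 to 3273 in WT arrays, also with replicate 1 highest. The sum of 8 macrophage and dendritic cell genes, 2 of them under the median, was lowest in replicate 2 and highest in replicate 1. It ran from 586 to 876 in SAP-deficient and from 634 to 837 in WT arrays. The sum of 3 CD8 T and NK cell genes, 1 of them under the median, ran from 362 to 629 in SAP-deficient and from 362 to 543 in WT arrays, lowest in replicate 2. The sum of 6 T cell genes ran from 16066 to 19491 in SAP-deficient and from 16439 to 19453 in WT arrays. That of 5 Tfh genes ran from 6845 to 9794 and from 7291 to 11265. Both were lowest in replicate 2, and the T cell sum was highest in replicate 1 of each genotype. Between genotypes, 0 of the 7 B cell, 0 of the 4 MHC class II and 0 of the 5 Tfh genes had a higher mean in SAP-deficient than in WT cells. The mean was higher in SAP-deficient cells for 4 of the 8 macrophage and dendritic cell, 2 of the 3 CD8 T and NK cell and 3 of the 6 T cell genes. None of these genes was called (limma), in a fit that called no gene at all. With same-numbered arrays as a block, as in the next paragraph, some had an unadjusted p under 0.05 (limma). Cd28, Trat1, Pdcd1, Il21, Ebf1, Cd72 and H2-Aa were lower in SAP-deficient cells, and Cd3d was higher. The lowest adjusted p among them was 0.408, for Cd28. Of all genes, 6.64% had an unadjusted p under 0.05 in that fit. The part of the other cell types in the levels of the feedback genes was not tested.

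With the same-numbered arrays as a block, the spread of the feedback genes within each comparison was smaller, and limma again called 0 of 9. The labels state no such pairing. In this fit the lowest bound of a 95% interval was -0.31, for Dusp10, and the highest 0.31, for Spry2. The interval of Spry1 ran from -0.21 to 0.07. That of Dusp1 ran from 0.02 to 0.27 and was the only one of the 9 to leave out 0. Dusp1 was the 1 gene of the 9 with an unadjusted p under 0.05 (0.028, adjusted p = 0.729, limma, higher in 3 of 3 comparisons). In that fit 6.64% of all genes had an unadjusted p under 0.05, and 0.0055% were called, which was Sh2d1a alone. Dusp1, always higher, and Spred1, always lower, were the 2 of 9 genes with the same sign at all 3 numbers, against 28.8% of all genes. Of the 18 probe sets, 2 had an unadjusted p under 0.05 with the block, that of Dusp1 and the same Spred1 probe set, against 5.69% of all probe sets; limma called 0 of the 18, against 0.00222% of all probe sets.

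The other genes of the pathway were taken as 6 lists, of which 67 genes are reported. Limma called 0 of the 67 and gave 0 an unadjusted p under 0.05, against 0% and 1.46% over all genes. The 7 other MAP kinase phosphatase genes had a median change of 0.01, with 5 higher and 2 lower. The smallest p-values belonged to Dusp7, an ERK phosphatase, at 0.11 ± 0.14 (SE), and to Dusp14 at -0.11 ± 0.14. The other 4 Sprouty and Spred genes had a median of -0.03, with 1 higher and 3 lower; Spry4, a further Sprouty brake, was at -0.11 ± 0.14 and Spred3 at 0.03 ± 0.14.

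Upstream of the brakes, 14 genes of Ras activation and the ERK cascade had a median change of 0.06, with 11 higher and 3 lower, against 53.3% of all genes higher. Plcg1, the phospholipase that makes diacylglycerol after receptor engagement, was at 0.19 ± 0.16 (SE), and the Ras gene Nras at -0.08 ± 0.11. Rasgrp1, the diacylglycerol-dependent activator of Ras in T cells, is named because its groups did not overlap, a choice made after its values were seen. It was at 8.83, 8.77 and 8.80 in SAP-deficient replicates 1 to 3, against 8.57, 8.71 and 8.73 in WT replicates 1 to 3, a change of 0.13 ± 0.11 (SE, limma adjusted p = 1.00). SAP-deficient arrays were all higher in 2.38% of all genes and all lower in 2.94%. The 14 genes of the JNK and p38 cascades had a median of 0.01, with 9 higher and 5 lower; the p38 gene Mapk11 was at 0.20 ± 0.14 and the kinase gene Map2k6, which activates p38, at -0.17 ± 0.29.

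Among 12 other brakes on Ras and diacylglycerol signalling, 9 were higher and 3 lower, with a median of 0.05. Rasa2, a Ras GTPase-activating protein gene, was at 11.12, 11.10 and 11.05 in SAP-deficient replicates 1 to 3, against 10.98, 11.02 and 10.99 in WT replicates 1 to 3. Its SAP-deficient arrays were all higher, by a small margin (change 0.09 ± 0.07, SE, limma adjusted p = 1.00), and the adaptor gene Dok1 was at -0.08 ± 0.12. The 16 other ERK-induced genes and their regulators had a median of 0.03, with 10 higher and 6 lower. The ETS factor gene Etv4 was at 0.22 ± 0.14 and the cyclin gene Ccnd1 at -0.28 ± 0.20.

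**Figure D5:**
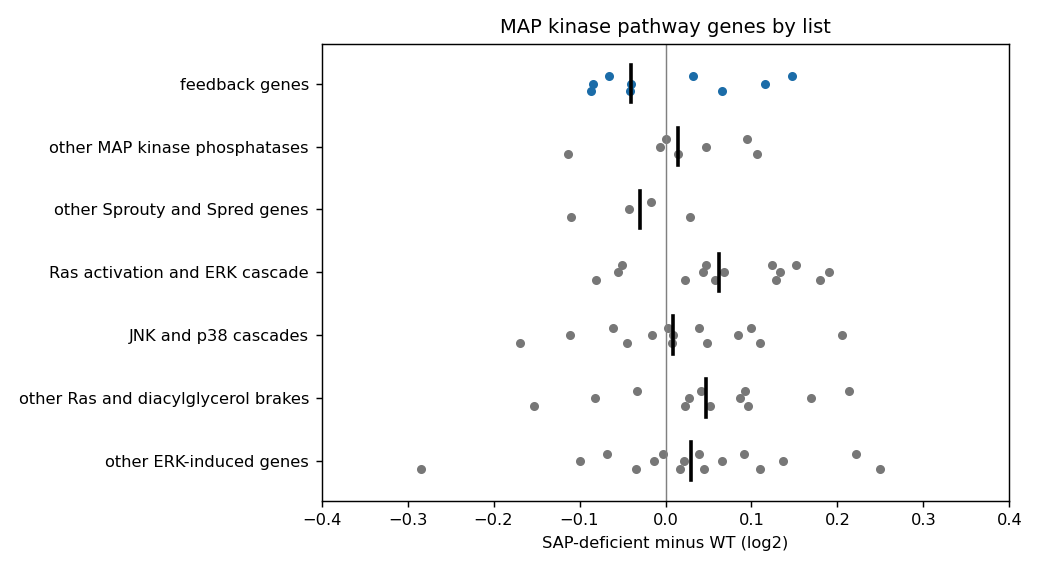
Change of each gene, SAP-deficient minus WT in log2 units, for the 9 feedback genes (blue) and the 6 other lists of the MAP kinase pathway (grey), with a black bar at each list's median. The feedback genes lie between -0.09 and 0.15, inside the span of the other lists, which runs from -0.28 (Ccnd1) to 0.25 (Ier3, an immediate early gene).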

How the data were processed

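The deposited table holds log2 values of 45101 probe sets, 1 column per array. Per the submitters' processing notes, they came from Affymetrix Expression Console with RMA, which corrects background, equalises the arrays' distributions and summarises probes on the log2 scale; its version is not given in the sources used here. Equalised distributions hide changes in total RNA per cell, and array medians ran from 5.73 to 5.76. Each array received labelled material from 500 ng of RNA, per the labels' protocols. After 64 control probe sets were left out, 45037 were tested. The platform annotation gave 1 gene for 34945, of which 34741 were matched to RefSeq and the rest kept their annotated symbol. Together these gave 18193 genes. Genotypes came from the strain label. Changes were tested with limma 3.58.1 (R 4.3.3, lmFit on genotype, eBayes with trend). Benjamini-Hochberg adjustment was over all genes or all probe sets, with a threshold of 0.05. The fit was run on simulated data with noise independent between arrays. These lacked the likeness of equal replicate numbers seen here, so they do not show how the fit performs on these arrays. The number of arrays limits the precision, and so do differences between replicate numbers, which count as spread in the fit on genotype alone. The SE of Dusp1 was 0.345 in that fit and 0.056 with equal replicate numbers as a block. The members and lists were chosen with earlier results of these data known. Named by rule beside the 9 members were Sh2d1a, the gene with the smallest p in each direction of each list, and the 3 genes most like Dusp6 and the most variable member; Rasgrp1, Ier3, Etv5 and Egr3 were named after their values were seen. Of 74 list genes, 67 are reported here. Alternatives were other variance settings, a filter on dim probe sets, second quantile normalization, median centring, array weights, other probe sets for a gene, a block for equal replicate numbers, and each array left out.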

Additional observations from a re-analysis of the deposited data

How the results depend on the processing

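The count of called feedback genes stayed at 0 of 9 under all 15 alternatives, and that of their probe sets at 0 of 18 (14 once dim probe sets were left out) under the 13 that apply to them. This says nothing of stability, since Sh2d1a itself was called only with the replicate block. The lowest adjusted p of a feedback gene was 0.729 (limma), for Dusp1 with the replicate block. That block, arrays with equal replicate numbers, raised the calls over all genes to 1, against 0 without it, and changed no call among the 67 pathway genes, of which 6 (8.96%) then had an unadjusted p under 0.05, against 6.64% of all genes. The labels do not pair the arrays, so it stands as an alternative. Directions of changes this small did turn: Spry1 was at 0.053 with array weights, and Spry2 at -0.015 with the mean of its probe sets. Leaving out 1 array unbalances the replicate numbers, so differences between numbers enter such values. They ran from -0.14 to 0.47 for Dusp1, -0.17 to 0.062 for Dusp2, -0.044 to 0.13 for Dusp4, -0.13 to 0.21 for Dusp5, -0.16 to 0.037 for Dusp6, -0.15 to 0.0077 for Dusp10, -0.31 to 0.20 for Spry1 and -0.16 to 0.37 for Spry2, while Spred1 stayed below 0 (-0.13 to -0.03). The median changes of the lists moved likewise, from -0.053 to 0.095 for other ERK-induced genes, 0.0065 to 0.076 for JNK and p38 cascades, -0.0085 to 0.083 for other Ras and diacylglycerol brakes, 0.037 to 0.074 for Ras activation and the ERK cascade, -0.054 to 0.094 for other phosphatases and -0.062 to 0.011 for other Sprouty and Spred genes. After a second quantile normalization, 3 genes in place of 2 had the same sign at all 3 replicate numbers. RMA values carry no detection calls, so probe sets near background were judged by their rank alone.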

Other observations

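Some ERK-induced genes outside the feedback group varied between replicate numbers more than any feedback gene. They were chosen after their values were seen. Etv5, an ETS factor gene used as an ERK readout, was at 6.53, 7.48 and 5.64 in SAP-deficient replicates 1 to 3, against 6.42, 7.53 and 5.29 in WT replicates 1 to 3. It was highest in replicate 2 of both genotypes, as the brighter Spry2 probe set was. Egr3, a receptor-induced zinc finger factor gene, was at 9.97, 8.36 and 10.09 in SAP-deficient replicates 1 to 3, against 10.14, 8.08 and 9.88 in WT replicates 1 to 3. It was lowest in replicate 2 of both genotypes, as Spry1 and Dusp1 were. The immediate early gene Ier3 was at 11.86, 11.12 and 12.36 in SAP-deficient replicates 1 to 3, against 11.50, 10.95 and 12.14 in WT replicates 1 to 3. Its arrays took the same order as those of Dusp1, and it was higher in SAP-deficient cells at all 3 numbers, by 0.36, 0.17 and 0.22. With the block its unadjusted p was 9.49e-04 and its adjusted p 0.429 (limma).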
